A study of Mus musculus with 8 samples.

Results

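Taperin (*Tprn*) and 8 genes of Usher syndrome (*Myo7a*, *Cdh23*, *Pcdh15*, *Whrn*, *Ush1c*, *Ush1g*, *Adgrv1* and *Clrn1*) were followed in retinas of Rbfox2-/- and control mice. They are 9 of the 17500 genes in the deposited table, and all 9 were among the 16797 genes that passed the count filter. The 8 Usher genes were chosen by family. *Tprn* was added because its difference between these same groups passed the threshold, so its values are a description. Any p or interval given with them restates that choice and is no test. *Adgrv1* is listed in the table under its older symbol *Gpr98*.

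Poly(A)-selected RNA was sequenced from whole retinas, 1 library per mouse. The 4 Rbfox2-/- mice were M893, M901, M902 and M909. The 4 controls were named M833, M894, M896 and M898. The labels give an age of 6 months, a C57BL/6J strain background and a tamoxifen entry of 4 months for every mouse. According to the study's methods, the knockout mice were Rbfox2 fl/fl and carried a tamoxifen-activated Cre recombinase that is active in the whole body and not in the retina alone. They were given tamoxifen on a few consecutive days at an age of about 2 months. The paper states that knockout retinas were taken 4 months later, so these 4 months are not the length of treatment. Controls were Rbfox2 fl/+ mice of matched age, heterozygous for the floxed allele, whose Cre status is not stated. Loss of Rbfox2, the Cre transgene and its activation can therefore not be told apart. The labels call the knockout group a knock-down.

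Usher syndrome is inherited deafness combined with retinitis pigmentosa, a degeneration of the photoreceptors. In the inner ear, Usher proteins build the links between stereocilia, the actin-filled projections of hair cells, and anchor them to the actin core. In photoreceptors, they are found around the connecting cilium and at the synapse. Taperin is an actin-associated protein at the tapered base of stereocilia, and its mutation causes deafness. Rbfox2 is an RNA-binding protein that regulates splicing through the motif UGCAUG, most often in introns.

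Rbfox2 itself was counted 26239 to 30008 times in control libraries and 8503 to 11406 times in knockout libraries, a log2 fold change of -1.41 (SE 0.046), with no overlap between the groups. The libraries held 160630226 to 211283591 counts on genes. Values below are CPM, counts scaled to a common library size after TMM normalisation, and 3 counts correspond to at most 0.0189 CPM. *Xist* was counted 277506 and 275967 times in M901 and M902 and 312 to 426 times in the other 6 libraries, so that these 2 knockout libraries stand apart. Across all genes tested, 11 (0.0655%) passed an adjusted p of 0.05 in edgeR's quasi-likelihood test, 6 higher (0.0357%) and 5 lower (0.0298%) in Rbfox2-/- retinas, and 2233 (13.3%) had an unadjusted p under 0.05. In 1181 genes (7.03%), the 4 knockout values did not overlap the 4 control values, of which 570 (3.39% of genes tested) were lower in Rbfox2-/- retinas.

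*Tprn* lies at chr2:25262618-25269885 (GRCm38, plus strand), with 4 exons over 7.27 kb and a coding sequence of 2247 bases. Its promoter is shown because *Tprn* is the member whose groups did not overlap. The window runs from 250 bases before to 50 bases after the RefSeq start of the gene (chr2:25262348-25262647, plus strand, GRCm38.p6), which lies upstream of the GENCODE start given above. Capitals mark CCAAT, the binding motif of the general transcription factor NF-Y, read on both strands:
*Tprn* promoter: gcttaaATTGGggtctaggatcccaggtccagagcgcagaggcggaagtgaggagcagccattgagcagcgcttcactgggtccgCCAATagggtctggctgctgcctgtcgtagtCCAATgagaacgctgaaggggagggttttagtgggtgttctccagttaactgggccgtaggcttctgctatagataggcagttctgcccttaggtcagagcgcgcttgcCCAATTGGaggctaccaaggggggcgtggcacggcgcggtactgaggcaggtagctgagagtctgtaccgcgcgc
The window holds 5 matches, 3 as CCAAT and 2 as its reverse complement ATTGG, and 1 pair overlaps within CCAATTGG. Of 32851 mouse promoter windows of the same length, 12289 (37.4%) held CCAAT on either strand and 89 (0.271%) held at least 5 matches. Of 3 motifs read, this was the one found in the *Tprn* window, which held neither TAATCC nor GGGCGG, the motif of SP1. GGGCGG stood in 35.7% of all windows and in those of *Myo7a*, *Ush1c* and *Whrn*. Among the 9 genes, the windows of *Tprn*, *Adgrv1*, *Clrn1* and *Pcdh15* held the motif. A match describes the letters of this window only.

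*Tprn* was measured at 10.8, 11.7, 10.3 and 11.5 CPM in control mice (in the order M833, M894, M896, M898, used throughout). In knockout mice (in the order M893, M901, M902, M909) it was 8.38, 8.11, 8.14 and 8.06 CPM. All 4 knockout values lay below every control value. The means were 11.1 ± 0.645 CPM in control and 8.17 ± 0.141 CPM in knockout retinas (SD, n = 4 each), so that knockout retinas held 73.8% of the control level. The log2 fold change was -0.44 (SE 0.057, 95% interval -0.57 to -0.31). The knockout mice differed little among themselves: the coefficient of variation was 1.72%, against 5.82% in the controls. These values rest on 1969 to 2256 counts in control libraries and 1292 to 1563 in knockout libraries. The edgeR adjusted p by which *Tprn* was chosen, 0.0277, lies just inside the threshold, and the gene just outside it had 0.0561. That choice depends on the libraries: *Tprn* passed the threshold without M833, but not without any of the other 7 mice, nor without M901 and M902 together. Its log2 fold change without that pair was -0.43. In whole-tissue RNA, fewer cells of a type and less RNA per cell cannot be told apart.

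**Figure D1:**
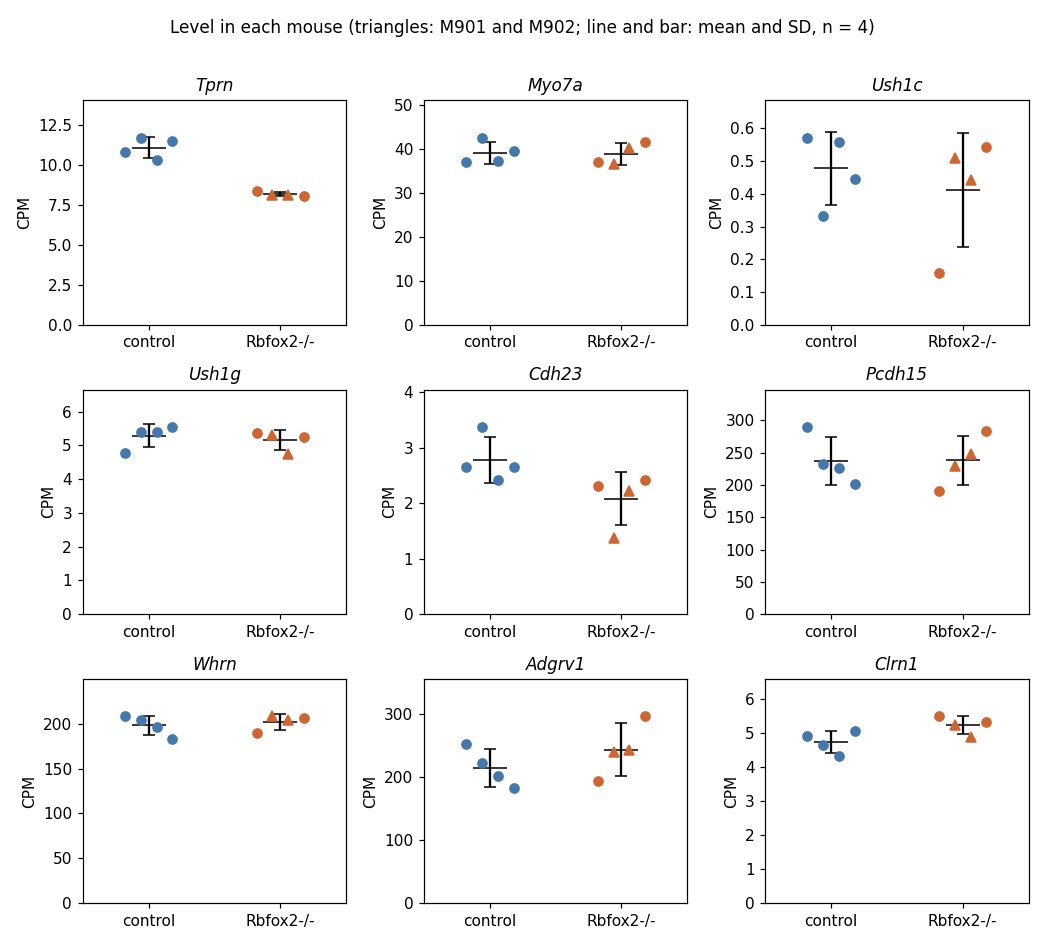
Level of taperin and the 8 Usher genes in each of the 8 mice, in CPM on axes that start at 0, with the mean and SD of each group (n = 4) and triangles for M901 and M902. The 4 Rbfox2-/- values of *Tprn* (8.06 to 8.38 CPM) sit below all 4 control values (10.3 to 11.7 CPM), while the groups of each Usher gene overlap.

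None of the 8 Usher genes passed the adjusted threshold, which 0.0655% of all genes did. Their adjusted p-values ran from 0.369 to 0.992 (edgeR's quasi-likelihood test). In all 8 the groups overlapped, and groups without overlap were found in only 7.03% of all genes. *Cdh23* was the 1 gene of the 8 with an unadjusted p under 0.05, near the share of 13.3% over all genes. The log2 fold change was above 0 in 4 and below 0 in 4, and its median over the 8 was -0.0017, against 0.0016 over all genes tested.

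Of the genes of Usher type 1, *Myo7a* encodes myosin VIIa, a motor that in the retina works in the pigment epithelium and in photoreceptors (chr7:98051060-98119524, minus strand, 49 exons). Its level was 37.1, 42.7, 37.4 and 39.6 CPM in control mice and 37.1, 36.6, 40.4 and 41.7 CPM in knockout mice. The groups covered nearly the same range, and the log2 fold change was -0.0084 (SE 0.060, 95% interval -0.14 to 0.13, adjusted p = 0.968). The summed level of 10 pigment epithelium markers ran from 110 to 248 CPM in control and from 101.5 to 238 CPM in knockout libraries, so that RNA of such genes was present in each. Its part in the level of *Myo7a* was not tested.

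*Ush1c* encodes harmonin and *Ush1g* encodes sans, scaffold proteins that hold myosin VIIa and the tip-link cadherins together. *Ush1c* (chr7:46195350-46238503, minus strand) was the lowest of the 9 genes, at 0.572, 0.334, 0.559 and 0.446 CPM in control mice and 0.159, 0.508, 0.441 and 0.542 CPM in knockout mice. The low value of M893 rests on 28 counts. The log2 fold change was -0.21 with an interval of -0.98 to 0.56 (SE 0.35, adjusted p = 0.834), and without M893 it was 0.057. Its exons overlap those of *Gm9860* on the other strand over 120 bases, and the strand setting of the counting is not given in the sources used here. *Ush1g* (chr11:115315192-115322041, minus strand, 3 exons) was measured at 4.79, 5.41, 5.40 and 5.54 CPM in control and 5.37, 5.30, 4.73 and 5.26 CPM in knockout mice. Its groups overlapped, with a log2 fold change of -0.033 (SE 0.077, 95% interval -0.20 to 0.14, adjusted p = 0.890).

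*Cdh23* and *Pcdh15* encode cadherin 23 and protocadherin 15, which form the tip link of hair cells. *Cdh23* (chr10:60302748-60696490, minus strand, 71 exons) was measured at 2.66, 3.37, 2.41 and 2.65 CPM in control mice and at 2.31, 1.37, 2.22 and 2.41 CPM in knockout mice. The values of M893, M901 and M902 lay below all controls, and that of M909 was level with the lowest control, M896. The means were 2.77 ± 0.416 and 2.08 ± 0.479 CPM (SD, n = 4 each), 75.0% of the control level, with a log2 fold change of -0.42 (SE 0.18, 95% interval -0.82 to -0.0094, adjusted p = 0.369). Its fold change was close in size to that of *Tprn* but its standard error was larger. The lowest value came from M901, and without M901 and M902 the log2 fold change was -0.23 (adjusted p = 0.914).

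*Pcdh15* (chr10:73099342-74649737, plus strand) spans 1550 kb. It was measured at 289.8, 232, 226 and 201 CPM in control mice and at 191, 229.6, 248 and 283 CPM in knockout mice. Both groups were spread widely, and their means were 237 ± 37.5 and 238 ± 38.3 CPM (SD, n = 4 each). Between the means, the log2 fold change was 0.0049 (SE 0.13, 95% interval -0.28 to 0.29, adjusted p = 0.992), an interval that leaves room for a change in either direction.

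The genes of Usher type 2 act together in the ankle links of stereocilia and the periciliary membrane of photoreceptors. *Whrn* encodes whirlin, the scaffold of this complex (chr4:63414910-63495991, minus strand, 13 exons). It was measured at 208, 204, 197 and 183 CPM in control and 189, 208, 203 and 206 CPM in knockout mice. Its log2 fold change of 0.027 (SE 0.047, 95% interval -0.078 to 0.13, adjusted p = 0.843) had the smallest standard error of the 9 genes.

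*Adgrv1* encodes a very large adhesion receptor that is a partner of whirlin (chr13:81095068-81633154, minus strand, 90 exons over 538 kb). Its promoter is shown because it was the only window of the 9 with TAATCC, the core motif of the photoreceptor transcription factor CRX and of OTX2 (chr13:81633095-81633394, minus strand, RefSeq, GRCm38.p6). The match is on the reverse strand and its letters GGATTA are in capitals:
*Adgrv1* promoter: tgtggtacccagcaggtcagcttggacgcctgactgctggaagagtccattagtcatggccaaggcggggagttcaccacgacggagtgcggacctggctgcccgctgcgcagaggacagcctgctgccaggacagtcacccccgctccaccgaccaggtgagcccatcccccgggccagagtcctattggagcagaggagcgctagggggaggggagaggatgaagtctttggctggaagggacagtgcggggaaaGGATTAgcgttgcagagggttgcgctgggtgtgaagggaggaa
Of all promoter windows, 7.06% held TAATCC on either strand. *Adgrv1* was measured at 252, 223, 201 and 183 CPM in control mice and at 194, 240.1, 243 and 296 CPM in knockout mice. The highest and lowest value of the 8 were in M909 and M898, and the groups overlapped. Knockout against control, the log2 fold change was 0.18 (SE 0.13, 95% interval -0.10 to 0.46, adjusted p = 0.572). It was 0.074 without M909, 0.11 without M898 and 0.28 without M893.

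*Clrn1* encodes clarin 1, a small membrane protein of Usher type 3 (chr3:58844028-58885340, minus strand, 4 exons). It was measured at 4.92, 4.65, 4.34 and 5.08 CPM in control mice and at 5.50, 5.23, 4.90 and 5.35 CPM in knockout mice. The values of 3 of 4 knockout mice lay above all controls. This gave a log2 fold change of 0.14 (SE 0.077, 95% interval -0.027 to 0.32, adjusted p = 0.443).

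**Figure D2:**
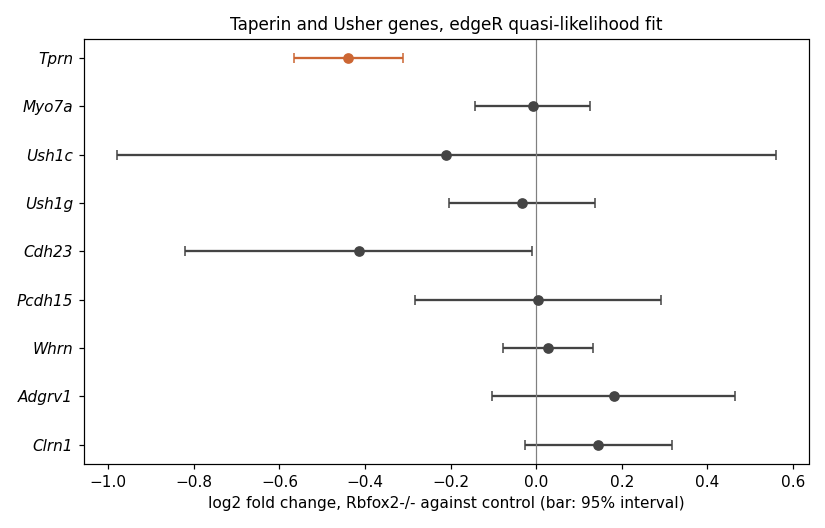
Log2 fold change of each gene in Rbfox2-/- against control retinas from edgeR's quasi-likelihood fit, with 95% intervals, for taperin and the 8 Usher genes. The interval of *Tprn*, which was chosen for its call, runs from -0.57 to -0.31 and is no test. That of *Ush1c*, the gene with the fewest counts, runs from -0.98 to 0.56.

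Levels of different genes were compared on the deposited FPKM, which divide the counts by gene length and library total. Over the 8 mice, *Whrn* was highest at 49.2 ± 1.84 FPKM, followed by *Pcdh15* at 26.3 ± 3.64, *Adgrv1* at 11.8 ± 1.81 and *Myo7a* at 5.43 ± 0.347 FPKM (SD, n = 8). *Tprn* followed at 3.97 ± 0.259 FPKM in control and 2.89 ± 0.0753 FPKM in knockout retinas (SD, n = 4 each). *Clrn1* at 1.75 ± 0.131 FPKM and *Ush1g* at 1.64 ± 0.111 FPKM overlapped in range, as did *Cdh23* at 0.216 ± 0.051 FPKM and *Ush1c* at 0.145 ± 0.045 FPKM (SD, n = 8). The other neighbours in this order did not overlap in the deposited FPKM. The scaffold of the type 2 complex was therefore the most abundant of these RNAs per length, 339.5 times the level of harmonin, the lower of the type 1 scaffolds, while sans stood between them. With the union of annotated exons as the length, 35 of 36 pairs of genes kept their order, and *Clrn1* and *Ush1g* changed places.

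**Figure D3:**
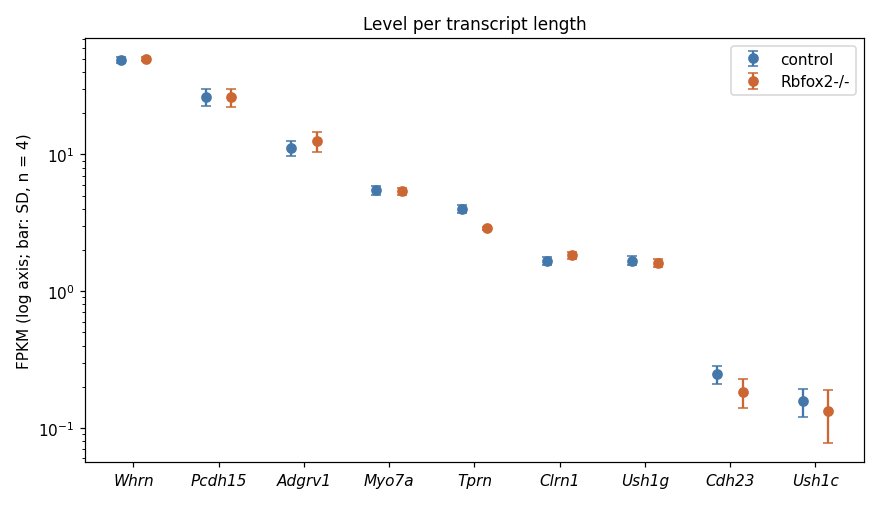
Mean FPKM of each gene in control and Rbfox2-/- retinas on a log axis, with bars for the SD over 4 mice. *Whrn* is highest at about 49.2 FPKM and *Ush1c* lowest at about 0.145 FPKM over all 8 mice, and *Tprn* is the gene whose group bars lie apart most clearly.

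*Adgrv1* and *Pcdh15* moved together from mouse to mouse within both groups. As log2 CPM relative to the mean of the 8 mice, *Adgrv1* was at 0.155, -0.022, -0.171 and -0.312 in control mice and at -0.223, 0.083, 0.103 and 0.388 in knockout mice, in the order given above. *Pcdh15* was at 0.300, -0.020, -0.059 and -0.227 in controls and -0.300, -0.037, 0.078 and 0.266 in knockouts. M833 and M909 were high and M898 and M893 low in both genes, so that 1 low and 1 high library fell in each group. Their ranges over the 8 mice were 0.699 for *Adgrv1*, 0.600 for *Pcdh15* and 0.183 for *Whrn*.

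*Adgrv1* and *Pcdh15* have long transcripts. *Cdh23* is also long but did not follow them: it was highest in M894 (0.511) and lowest in M901 (-0.782), with a range of 1.29. The median deviation of the 607 genes of at least 8000 bases was 0.098, 0.020, 0.000 and -0.070 in the control mice and -0.086, 0.005, -0.030 and 0.059 in the knockout mice, a range of 0.184. The 3936 genes under 2000 bases had a range of 0.044. M833 and M909 were also highest and M893 and M898 lowest among the long genes. In *Rpgr*, of 2795 bases, the same mice were highest and lowest. It was at 34.4 and 34.6 CPM in M833 and M909 and at 20.7 and 22.1 CPM in M893 and M898. *Cep290*, of 8006 bases, was also lowest in M898 and M893, at 120 and 125 CPM. It was highest in M909 and M901, at 154 and 152 CPM, and was at 149 CPM in M833. With a gene length offset per library, chosen after the values were seen, the log2 fold change of *Adgrv1* was 0.22 (SE 0.065, adjusted p = 0.231). The part of transcript length in the level of each gene was not tested beyond this fit.

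**Figure D4:**
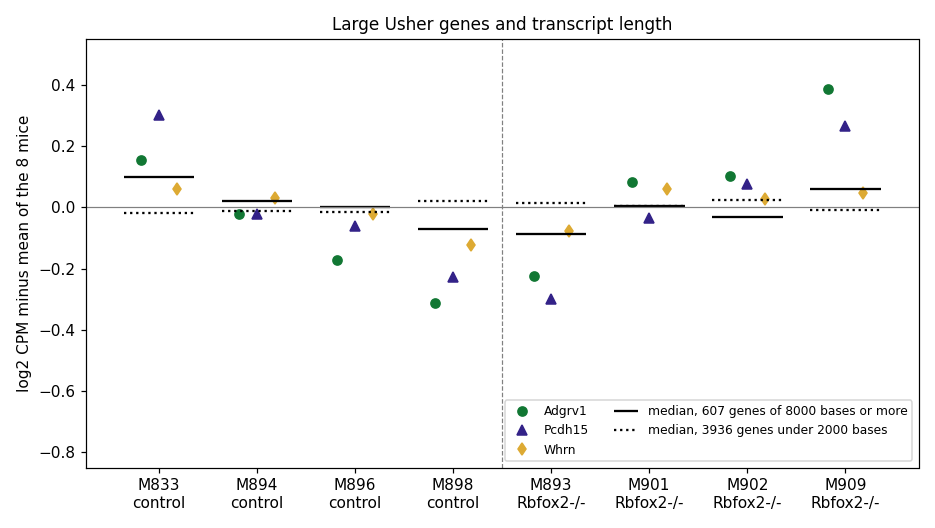
Log2 CPM of *Adgrv1*, *Pcdh15* and *Whrn* in each mouse minus the mean of the 8 mice (points), beside the median of 607 genes of 8000 bases or more (solid line) and of 3936 genes under 2000 bases (dotted line). *Adgrv1* ranges from -0.312 in the control M898 to 0.388 in the knockout M909, and the solid line is highest in M833 and M909.

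Copies of the Rbfox motif were counted on the sense strand of the mature transcript with the longest coding sequence (GENCODE M21). Introns were not read here. TGCATG was present in 5 of the 9 transcripts: 6 copies in *Adgrv1*, 2 each in *Myo7a*, *Whrn* and *Clrn1*, and 1 in *Cdh23*. Of 14945 mouse transcripts, 53.9% held it. *Tprn* held no TGCATG. It held the shorter GCATG once, as 87.6% of transcripts did at least once. The copies of *Whrn* with TGCATG, one in the 5′ UTR and one in exon 4 of the coding sequence, are set beside the single GCATG of *Tprn*, which spans its start codon, with the motif in capitals and 10 bases on each side:
*Tprn*, chr2:25262686-25262690, plus strand, exon 1: cgcgtccgcaGCATGgccggcctgg
*Whrn*, chr4:63495905-63495910, minus strand, exon 1: cccgggctgcTGCATGgtgggcggcc
*Whrn*, chr4:63435508-63435513, minus strand, exon 4: ctcaacatccTGCATGatgaggcagt
GCATG occurred at 0.359 copies per kb in *Tprn* and 1.95 copies per kb in *Clrn1*, the highest of the 9, with a median of 0.867 over all transcripts. It was under that median in 7 of the 9 members, with *Ush1c* lowest at 0.326 copies per kb and *Tprn* next. A match describes the letters of the transcript, and binding was not measured here.

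The 48 tested genes of 6 lists around these complexes (52 listed) gave no call in edgeR's quasi-likelihood test in either direction, with a lowest adjusted p of 0.239, while 10 (20.8%) had an unadjusted p under 0.05, against 13.3% of all genes. Of these 10, 7 were higher and 3 lower. The groups did not overlap in 6 of the 48, against 7.03% of all genes. Over all 48, the median log2 fold change was 0.031. DESeq2 called 1 of them, *Cdhr1*, and 465 genes in all (3.07% of the genes it gave an adjusted p).

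Of 8 other Usher and Usher-like genes, 2 were higher and 1 lower at an unadjusted p under 0.05. *Pdzd7*, the PDZ protein that joins whirlin and *Adgrv1*, was at 5.32 ± 0.476 CPM in control and 6.38 ± 0.620 CPM in knockout retinas, a log2 fold change of 0.26 (SE 0.094, adjusted p = 0.289). *Cib2*, a calcium-binding protein of the hair-cell transduction complex, was at 10.9 ± 0.185 and 9.97 ± 0.309 CPM, without overlap (log2 fold change -0.13, SE 0.049, adjusted p = 0.300). *Cep78*, a centrosomal protein, was at 12.6 ± 1.16 and 14.3 ± 0.707 CPM (0.18, SE 0.071, adjusted p = 0.325).

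Of the genes at the base of stereocilia, where taperin sits, 6 of 8 listed were tested and *Ptprq* and *Grxcr1* had no row in the table. *Clic5*, which acts with taperin and radixin at the base, was at 2.84, 2.39, 2.69 and 2.79 CPM in control and 2.17, 2.25, 1.78 and 2.33 CPM in knockout mice. All knockout values lay below all control values, with a log2 fold change of -0.33 (SE 0.11, adjusted p = 0.277). *Ppp1r18*, which encodes phostensin, a regulator of protein phosphatase 1, was higher in every knockout than in every control mouse, at 21.2 ± 0.963 and 23.2 ± 0.0817 CPM (log2 fold change 0.13, SE 0.044, adjusted p = 0.275). *Rdx*, which encodes radixin, was at 109 ± 3.09 and 109 ± 1.72 CPM (0.0049, SE 0.031, adjusted p = 0.963), and *Myo6*, the minus-end myosin of the base, had a log2 fold change of 0.011 (SE 0.046, adjusted p = 0.943). The 3 catalytic subunits of protein phosphatase 1, an enzyme that taperin binds, had log2 fold changes of 0.011 (*Ppp1ca*), 0.064 (*Ppp1cb*) and 0.086 (*Ppp1cc*), with a lowest adjusted p of 0.544.

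Of the 13 tested genes of actin bundles and stereocilium length (14 listed), *Myo15*, the motor that carries cargo to the tips, was at 1.55 ± 0.124 CPM in control and 1.09 ± 0.191 CPM in knockout retinas, without overlap (log2 fold change -0.51, SE 0.15, adjusted p = 0.239). *Espn*, an actin bundler, was at 39.3 and 43.1 CPM (0.13, SE 0.053, adjusted p = 0.326). The 5 tested hair-cell transduction genes together were at 5.06 to 6.90 CPM in control and 6.04 to 6.77 CPM in knockout libraries, and none had an unadjusted p under 0.05.

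Of 13 photoreceptor disc and connecting-cilium genes, 11 had a log2 fold change above 0 and the median was 0.089. *Cdhr1*, a cadherin of the disc base, was at 1676 and 1883 CPM (log2 fold change 0.17, SE 0.051, adjusted p = 0.243). *Lca5*, the connecting-cilium protein lebercilin, was at 77.9 and 84.2 CPM without overlap (0.11, SE 0.040, adjusted p = 0.284). *Prph2*, a disc-rim protein, was at 5502 and 6000 CPM without overlap (0.13, SE 0.049, adjusted p = 0.330). Rod markers, at 63199 to 68179 CPM in control and 65699 to 71331 CPM in knockout libraries, had log2 fold changes above 0 in 8 of 8, with a median of 0.11. The rod list shares a gene with the disc and cilium list, so the lists are not independent. The summed cone markers did not overlap, at 937 to 938 and 1000 to 1131 CPM, and 6 of 7 had a log2 fold change above 0. *Opn1sw*, the most abundant, had means of 354 and 426 CPM, and without it the sums overlapped. *Opn1mw* went the other way, with a log2 fold change of -0.23 (SE 0.094, edgeR adjusted p = 0.353). The part of rod and cone levels in the values of the disc and cilium genes was not tested.

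The gene groups above were also set against markers of the other cell types of the retina. The summed level of 5 horizontal cell markers was 256 to 266 CPM in control and 233 to 240 CPM in knockout libraries, and 1 of them, *Calb1*, was called lower, from a mean of 76.2 to 57.9 CPM. The other 4 were not called, and without *Calb1* their sums overlapped between the groups. *Lhx1* had a log2 fold change above 0, of 0.18 (SE 0.076, edgeR adjusted p = 0.353), and *Septin4*, the most abundant, one of -0.049 (SE 0.036, adjusted p = 0.588). *Onecut1* was lower without overlap, at 6.05 ± 0.157 and 5.51 ± 0.139 CPM (-0.13, SE 0.060, adjusted p = 0.382), against 7.03% of all genes without overlap. *Onecut2* overlapped, with a log2 fold change of -0.20 (SE 0.10, adjusted p = 0.424). Of the 5 markers, 4 had a log2 fold change below 0. According to the paper, calbindin commonly marks amacrine as well as horizontal cells. The summed Muller glia markers were at 6162 to 6830 CPM in control and 5498 to 6213 CPM in knockout libraries. Summed amacrine, bipolar, ganglion cell, endothelial, microglial, erythrocyte and lens markers overlapped between the groups. The 6 ciliary epithelium markers ran from 28.3 to 78.7 CPM in control and from 8.48 to 41.7 CPM in knockout libraries, with M901 and M902 lowest. Cochlear hair cell markers, with *Atoh1* without a row, summed to 2.37 to 4.04 and 2.98 to 4.25 CPM. The part of each of these cell types in the level of *Tprn* was not tested.

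*Tprn* lies among densely packed genes. Of 16 genes annotated within 50 kb, 11 had a row and 10 were tested. None was called by edgeR's quasi-likelihood test, and 2 of the 10 had an unadjusted p under 0.05, against 13.3% of all genes. *Grin1*, a subunit of the NMDA receptor, was at 151 ± 7.87 and 133 ± 6.43 CPM (log2 fold change -0.18, SE 0.047, adjusted p = 0.192) and was the only tested neighbour whose groups did not overlap, against 7.03% of all genes. *Rnf208* had a log2 fold change of -0.25 (SE 0.071, adjusted p = 0.228). The nearest gene, *Ssna1*, lies 1154 bases away and had a log2 fold change of -0.10 (SE 0.050, adjusted p = 0.424), and *Anapc2*, 2593 bases away, one of -0.011 (adjusted p = 0.922). Of the 10, 9 had a log2 fold change below 0, against a median of 0.0016 over all genes tested. The lowest was -0.42 in *Fam166a* (SE 0.27, adjusted p = 0.526), on 30 to 82 counts per library. The 1 above 0 was *Cysrt1*, at 0.61 (SE 0.52, adjusted p = 0.639), on 8 to 39 counts. A shared cause of these signs was not tested.

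The 5 genes whose pattern over the 8 mice was most like that of *Tprn* were sought among 13755 genes with a mean of at least 1 CPM, by the root mean square difference of log2 CPM centred on the mean of the 8 mice. They were *Trim7* (0.055), *Frmpd4* (0.081), *Calb1* (0.081), *Arhgap6* (0.091) and *Adra1a* (0.092). Each was lower in all 4 knockout than in all 4 control mice, which a search by likeness to *Tprn* makes probable in itself. *Calb1*, a calcium-binding protein of horizontal and amacrine cells, was at 78.0, 73.9, 77.3 and 75.7 CPM in control and 56.8, 60.5, 57.9 and 56.3 CPM in knockout mice. *Trim7*, the closest, was at 1.38, 1.62, 1.34 and 1.58 CPM in control and 1.2, 1.04, 1.07 and 1.10 CPM in knockout mice.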

How the data were processed

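Poly(A)-selected RNA of 8 mouse retinas was sequenced as paired reads. According to the study's methods, STAR alignment to mm10 was followed by HTSeq counting of uniquely mapped reads per gene, and both a RefSeq and an Ensembl annotation are named. The submitters' processing notes also name CASAVA 1.8.2. The deposited counts are raw, and every gene listed had at least 5 counts in at least 4 libraries. The deposited FPKM were computed by the authors from counts, gene length and library total, and were used only for levels between genes. The deposited normalised signal, log2 fold changes and p-values of the authors' own comparison were not used.

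The quasi-likelihood test of edgeR 4.0.16 (R 4.3.3) was run on all 8 libraries without covariates, after filterByExpr and TMM normalisation, with Benjamini-Hochberg adjustment over the 16797 genes tested and a threshold of 0.05. The standard error is the size of the log2 fold change over the root of the F statistic. The libraries held 160630226 to 211283591 counts. The members had 28 to 60323 counts per library, fewest in *Ush1c*, and the number of mice, 4 per group, also limits the precision. The procedure was run on simulated counts with planted changes larger than those of the members. That run does not show whether changes of the members' size would be found.

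Members and lists were chosen with earlier results of these data known. Named were the members, from each list up to 4 genes with the lowest p (with *Rdx* added as a partner of *Tprn* after its values were seen), genes within 50 kb of *Tprn*, and the 5 nearest in profile to *Tprn*. *Trim7* and *Calb1* were given in full, and *Rpgr*, *Cep290*, *Opn1sw*, *Opn1mw*, *Onecut1* and *Onecut2* were named, after their values were seen. A gene of the fixed lists is not reported here by name. Profiles used log2(CPM + 0.01). The promoter windows and gene positions come from RefSeq (GRCm38.p6) and GENCODE M21, both of the build that mm10 names. Alternatives were RLE and upper-quartile normalisation, a minimum of 10 counts per gene in each library, testing without a filter, DESeq2 1.42.0, edgeR's likelihood ratio test, limma-voom (limma 3.58.1), leaving out each mouse, and the *Xist* class of M901 and M902, as a term or left out. The gene length offset was added after the data were seen.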

Additional observations from a re-analysis of the deposited data

How the results depend on the processing

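The count of genes called was 11 and stayed at 11 or 12 under the other normalisations, the 2 other count filters, limma-voom and the length offset. It was 465 with DESeq2 and 164 with the likelihood ratio test, 1 without M901 and M902, 4 with their *Xist* class as a term, 4 with that term and the length offset, and 5 to 35 when 1 mouse was left out. The cause was not tested. Of the members, 1 (*Tprn*) was called in 9 of 19 alternatives and 0 in 10, namely without M901 and M902, with the *Xist* term, with that term and the length offset, and in 7 of 8 fits that left out 1 mouse (0 to 1 member called). Of these 8, the fit without M833 kept the call. Since *Tprn* was chosen for its call in these libraries, these counts show how far that choice depends on the settings and are no test of it. The log2 fold change of *Tprn* stayed between -0.47 and -0.41 in all of them. The listed pathway genes called were 0, and 1 (*Cdhr1*) with DESeq2.

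The sign of Usher genes with values near 0 changed. When M901 and M902 were left out, the values of *Myo7a*, *Pcdh15*, *Whrn* and *Ush1g* were 0.0057, -0.0026, -0.0043 and 0.0044 as log2 fold changes. With the *Xist* term they were 0.0085, -0.00063, -0.0017 and 0.0075. With the length offset that of *Myo7a* was 0.033, and with both it was 0.031 and that of *Ush1g* 0.0092. When 1 mouse was left out, the ranges were -0.042 to 0.035 for *Myo7a*, -0.088 to 0.11 for *Pcdh15*, -0.0078 to 0.057 for *Whrn*, -0.37 to 0.057 for *Ush1c* and -0.081 to 0.0049 for *Ush1g*. None of the 8 Usher genes was called in any of these fits. No paired analysis was possible because each mouse has its own identity and replicate numbers only follow accession order.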
